A study of Ciona robusta with 8 samples.

Results

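The comparison of a Tcf guide RNA (gRNA) with a control gRNA at 15 hours post fertilization (hpf) rested on 4 of the 8 libraries of the study, chosen by their titles. They were 2 libraries of sorted trunk ventral cells of the ascidian Ciona robusta that had received CRISPR/Cas9 with a Tcf gRNA, and 2 that had received a control gRNA. The other 4 libraries were the same guides at 18 hpf, with 2 libraries each. The labels describe all of these cells as multipotent progenitors of heart and pharyngeal muscle. Cas9 and a gRNA were common to both guides, so the control libraries stand for Cas9 with a control gRNA and not for untreated embryos. The promoter that drove Cas9, the number of embryos pooled and the sequence of the control gRNA are not stated in the labels.

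Trunk ventral cells are born from the cardiogenic mesoderm of the early embryo, migrate into the trunk as pairs and later divide into heart precursors and pharyngeal muscle precursors. Tcf proteins bind DNA and carry the transcriptional output of canonical Wnt signalling. In the absence of the signal they act with Groucho-type corepressors, and when beta-catenin accumulates in the nucleus they act as activators. Loss of Tcf can therefore lower some target genes and raise others. Cas9 mutagenesis in electroporated embryos is mosaic and alters DNA, so the transcript of a targeted gene may or may not change in amount.

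The libraries held 7261574 and 7760462 counts for Tcf and 6207795 and 7765068 counts for control at 15 hpf. Of the 15232 gene models of the KH2013 set, 843 had no count in either Tcf library and 896 had none in either control library. Of these models 11970 had enough counts to be tested. The files identify genes by model number, and none of these numbers matched the reference table used for names. Gene names, functions, positions and sequences were therefore not assigned, the model of Tcf itself was not identified, and the cell type could not be checked against its markers. Lists of Wnt, FGF, BMP, Notch and cell cycle genes and of cell type markers could not be applied for the same reason. At most 2 models with higher and 2 with lower values are named, by number.

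The 4 libraries of 15 hpf did not separate by guide in their overall profile. The median absolute difference in log2 CPM (counts scaled to a common library total, prior count 2) over tested models was 0.27 between the 2 Tcf libraries and 0.34 between the 2 control libraries. Between guides it ran from 0.25 to 0.36, and the closest pair of the 4 libraries was Tcf replicate 1 with control replicate 2. By this measure control replicate 1 was the most distant library. Its pairs differed by 0.34 to 0.36, and all other pairs by 0.25 to 0.28.

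Tcf replicate 2 stood apart from the other libraries of 15 hpf in a set of models. With the tested models divided into 4 bins of equal size by their mean level over all 8 libraries, 25 models of the upper 2 bins were at least 4-fold higher in this library than in each of the other 3. No model was so placed in Tcf replicate 1 or in either control library. Summed over the 25 models, the level was 481.6 CPM in Tcf replicate 1 and 5490 CPM in Tcf replicate 2, against 563.9 and 532.2 CPM in control replicates 1 and 2. At 18 hpf the same sum was 2473 and 4311 CPM in Tcf libraries and 10970 and 3751 CPM in control libraries. A single model gave 1706 of the 5490 CPM, and without it the sum was 306.0 and 3783 CPM in Tcf and 374.5 and 363.0 CPM in control libraries of 15 hpf. In Tcf replicate 2, 16 of the 25 models lay within the range of the 4 libraries of 18 hpf and 9 lay above it. Many of these models were low in the other libraries of 15 hpf, where their medians were 7.69 to 8.61 CPM. The models were chosen for their level in that library, so the sums at 15 hpf describe the choice. The bins use the mean over all 8 libraries, so levels at 18 hpf entered the choice as well. The sums and the placing at 18 hpf are therefore not independent of it. None of the 25 was called (lowest adjusted p = 0.92, edgeR's quasi-likelihood test). In the opposite direction, 7 models of the upper 2 bins were at least 4-fold lower in control replicate 1 than in each of the other 3 libraries, and 3 were so in control replicate 2. Over all tested models, 66 were so higher and 19 so lower in Tcf replicate 2, against 22 and 76 in control replicate 1.

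**Figure D1:**
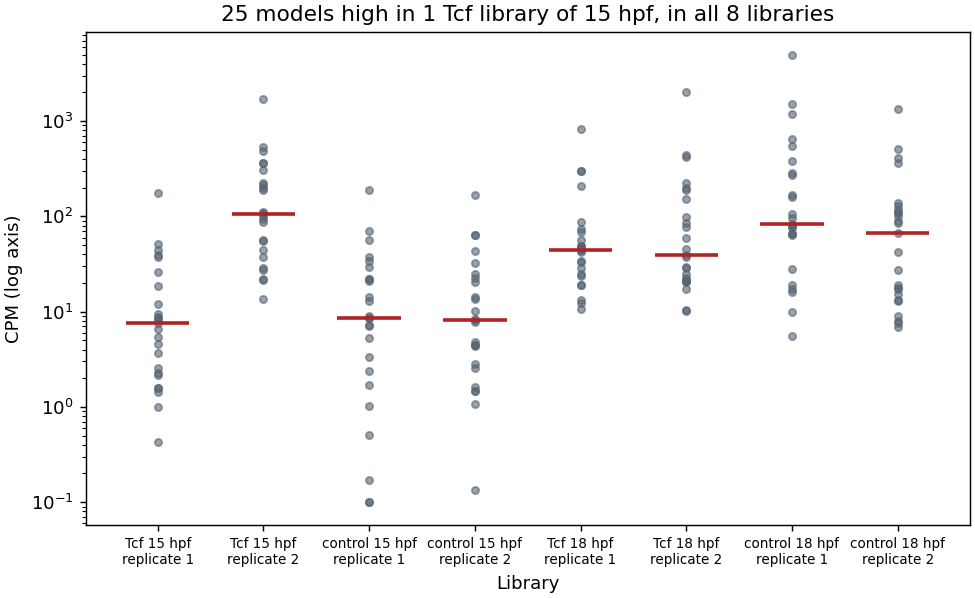
Level in CPM (log axis) of 25 models in all 8 libraries. They are models of the upper 2 bins, at least 4-fold higher in Tcf replicate 2 than in each other library of 15 hpf. Points are models, with a value of 0 drawn at the foot of the axis, and bars are medians, which were 7.69 and 107 CPM in the Tcf libraries and 8.61 and 8.09 CPM in the control libraries of 15 hpf.

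With edgeR's quasi-likelihood test on all 8 libraries 1 model passed the threshold, KH.C6.71, which fell in the Tcf libraries, and 0 passed with higher values. KH.C6.71 had 335 and 438 counts in the Tcf libraries, against 1526 and 2007 counts in the control libraries. After scaling it stood at 47.7 and 60.4 CPM in Tcf and at 257.6 and 270.8 CPM in control libraries. Both Tcf libraries lay far below both control libraries, and the gap between guides was much wider than the gap between replicates. The group means were 54.0 ± 8.95 CPM in Tcf and 264.2 ± 9.27 CPM in control libraries (SD, n = 2 each), 4.89-fold lower in Tcf (log2 fold change -2.29, 95% interval -2.67 to -1.90, adjusted p = 0.00024, edgeR's quasi-likelihood test). It was the single call of this test among 11970 models, 0.00835% of them, with 605 at an unadjusted p under 0.05, while DESeq2 called 22 models and limma-voom 4. The call held in each of 17 alternatives, with log2 fold changes from -2.46 to -2.13. Without Tcf replicate 2 the log2 fold change was -2.46 (adjusted p = 0.00108). No source used here pairs KH.C6.71 with a gene name. In bulk samples such as these, fewer cells with a transcript and less of it per cell cannot be told apart.

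In the 4 libraries of 18 hpf KH.C6.71 fell as well, in the same fit and with a common estimate of spread. It had 60.5 and 81.2 CPM in Tcf libraries, against 214.6 and 186.0 CPM in control libraries (log2 fold change -1.50, 95% interval -1.88 to -1.13, adjusted p = 0.0176, edgeR). This call at 18 hpf ended without Tcf replicate 1 of that time (log2 fold change -1.30, adjusted p = 0.552) and when its 4 libraries were fitted alone (adjusted p = 0.108). The Tcf libraries of both times lay between 47.7 and 81.2 CPM, and the control libraries of both times between 186.0 and 270.8 CPM. The effect at 18 hpf minus that at 15 hpf was 0.79 on the log2 scale, with a 95% interval of 0.27 to 1.31. This difference between times did not pass the threshold (adjusted p = 0.959). The model was chosen by its p at 15 hpf, and that effect is part of the difference. The interval does not allow for the choice.

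**Figure D2:**
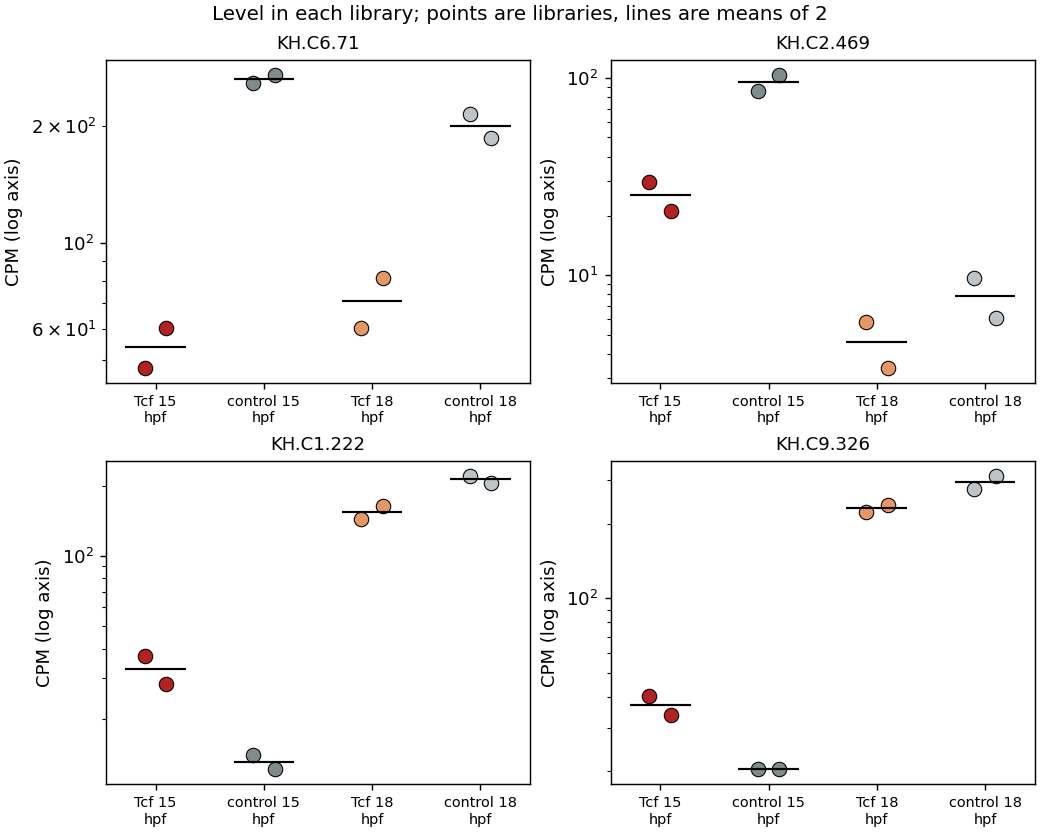
Level in CPM (log axis) of the 4 named models in each library, with the mean of 2 libraries as a line. KH.C6.71 is lower in Tcf than in control libraries at both times, while KH.C1.222 and KH.C9.326 lie above the control libraries at 15 hpf and below them at 18 hpf.

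The lower model next in order of p was KH.C2.469. It had 208 and 154 counts in Tcf libraries, against 511 and 771 in control libraries, which is 29.6 and 21.2 CPM in Tcf and 86.3 and 104 CPM in control libraries. The groups did not overlap, as for 15.2% of all tested models in this direction. The log2 fold change was -1.90 (95% interval -2.51 to -1.30) and missed the threshold (adjusted p = 0.0739, edgeR). It passed in 7 of 17 alternatives, and over these the adjusted p ran from 4.35e-07 to 0.385. The highest came without Tcf replicate 2 (log2 fold change -1.68). By 18 hpf its level was low in both guides, at 5.80 and 3.39 CPM in Tcf and 9.64 and 6.09 CPM in control libraries. The log2 fold change there was -0.78 (95% interval -1.50 to -0.07, adjusted p = 1, edgeR).

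The higher models with the smallest p were KH.C1.222 and KH.C9.326. KH.C1.222 had 260 and 204 counts in Tcf libraries and 83 and 90 in control libraries, or 37.0 and 28.1 CPM in Tcf and 14.0 and 12.1 CPM in control libraries. Its groups did not overlap, as for 17.3% of tested models in this direction. The log2 fold change was 1.32 (95% interval 0.92 to 1.72) and missed the threshold (adjusted p = 0.0639, edgeR). It passed in 6 of 17 alternatives, with adjusted p from 5.85e-06 with DESeq2 to 0.998 when the libraries of 15 hpf were fitted alone. Without Tcf replicate 2 the log2 fold change was 1.51 (adjusted p = 0.0359).

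KH.C9.326 had 40.1 and 33.8 CPM in Tcf libraries, against 20.4 and 20.5 CPM in control libraries. The log2 fold change was 0.85 (95% interval 0.52 to 1.18, adjusted p = 0.219, edgeR). It passed in 1 of 17 alternatives, DESeq2 (adjusted p = 0.00797), in a range up to 0.999, and had a log2 fold change of 0.98 without Tcf replicate 2 (adjusted p = 0.385).

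At 18 hpf both of these models were much more abundant and the order of the guides was the opposite. KH.C1.222 had 144.2 and 164.0 CPM in Tcf and 220.6 and 205.1 CPM in control libraries. KH.C9.326 had 224.0 and 238.4 CPM in Tcf and 275.9 and 312.4 CPM in control libraries. In both cases the Tcf libraries lay below the control libraries, as for 15.6% of tested models at 18 hpf, and neither model passed there (adjusted p = 1 for each, edgeR). The effect at 18 hpf minus that at 15 hpf was -1.78 for KH.C1.222 (95% interval -2.31 to -1.26, adjusted p = 0.104, edgeR) and -1.20 for KH.C9.326 (95% interval -1.64 to -0.76, adjusted p = 0.27). These differences had small unadjusted p-values and did not pass over all tested models. Both models were chosen for a small p at 15 hpf, and that effect is part of the difference. The choice tends to widen the difference, and the intervals do not allow for it.

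Over the whole gene set the values of the 2 guides were close. The median log2 fold change was 0.01 and the median absolute log2 fold change 0.23. An unadjusted p under 0.05 was reached by 605 models, 5.05% of those tested, of which 317 (2.65%) were higher and 288 (2.41%) lower in Tcf libraries. The number was 1362 without control replicate 2 and 420 without Tcf replicate 2. Precision depended on level. In the top bin of mean level, from 49.8 CPM upwards, the median absolute log2 fold change was 0.10 with a median SE of 0.16. The 95% interval lay inside a 2-fold change in either direction for 96.4% of these 2993 models. In the bin below it was so for 78.7%, in the next for 19.2%, and in the lowest bin, up to 3.82 CPM, for 0 of 2989 models with an estimated SE. For the models of the lowest bin these libraries therefore set no bound as narrow as a 2-fold change.

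**Figure D3:**
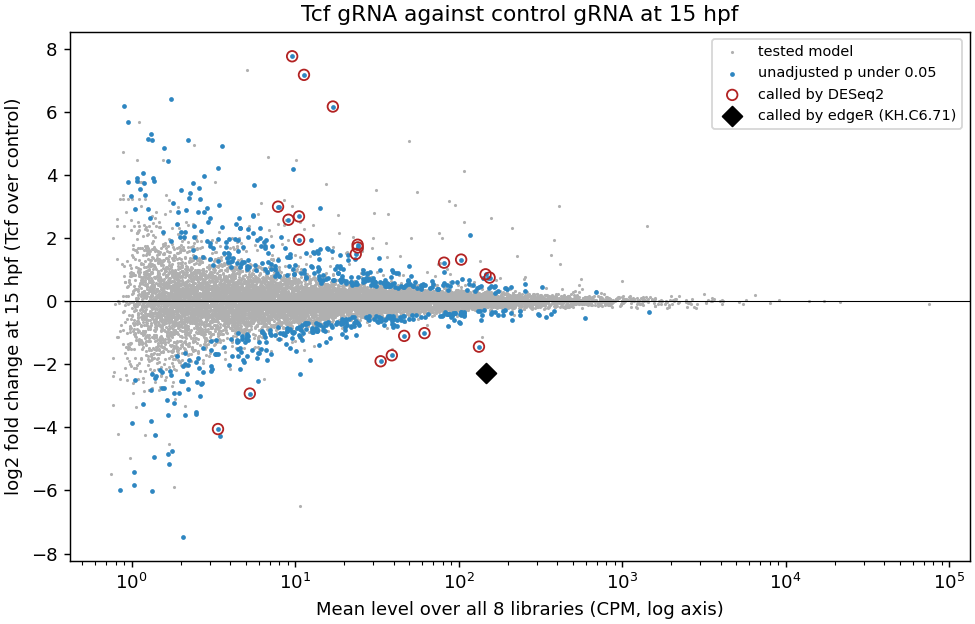
log2 fold change of Tcf over control at 15 hpf against the mean level over all 8 libraries (CPM, log axis), with 1 point for each of 11970 tested models. The spread narrows from left to right, and KH.C6.71, the call of edgeR, has the lowest log2 fold change of the models in the top bin, from 49.8 CPM upwards.

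Among the 100 most abundant models, from 1140 to 74900 CPM, 97 had an interval inside a 2-fold change. In this set 1 model was lower at an unadjusted p under 0.05, with a log2 fold change of -0.34, and 0 were higher. Complete presence or absence was rare. Of all listed models, 1 had 0 counts in both control libraries and at least 10 in both Tcf libraries, with 24 and 27 counts, and 0 showed the reverse. This model was not called by edgeR (adjusted p = 0.228), though it was among the calls of DESeq2. It had counts in all 4 libraries of 18 hpf.

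Fitted changes of at least 2-fold in the upper 2 bins were more often toward higher values in Tcf libraries, and this balance turned without 1 library. Of 5985 models, 70 had a fitted change of at least 2-fold upwards and 14 downwards. The groups did not overlap for 39 of the 70. The 70 were chosen by their change in the same libraries, which favours such groups. The 17.3% of all tested models in this direction is therefore no like baseline. The 25 models of Tcf replicate 2 were all among the 70, as their choice by a 4-fold gap makes likely. The groups did not overlap for 4 of the 25, for which the choice had already placed Tcf replicate 2 above the control libraries. Over all 11970 models the numbers were 629 higher and 526 lower, and in the lowest bin 392 higher and 411 lower. In the upper 2 bins the balance turned without Tcf replicate 2, with 32 higher and 47 lower. The other libraries of 15 hpf moved the numbers of these bins too. There were 112 higher and 33 lower without Tcf replicate 1, 93 and 15 without control replicate 1, and 133 and 61 without control replicate 2.

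Other tools called more models in the same counts. DESeq2 called 22, 0.184% of those tested, of which 14 were higher and 8 lower. limma-voom called 4, or 0.0334%, all lower in Tcf libraries, and all 4 were among the calls of DESeq2. These 4 had log2 fold changes of -2.29 to -1.44 in the fit of edgeR and 95.1 to 361 CPM in control libraries. All 4 had negative values at 18 hpf as well (median log2 fold change -1.14), and for 3 of them the groups of 18 hpf did not overlap, as for 15.6% of tested models in this direction. Of the 14 higher calls of DESeq2, 6 had the same sign at 18 hpf, as had 6 of its 8 lower calls and 49.7% of all tested models. edgeR called 19 models without Tcf replicate 1 (17 higher), 2 without Tcf replicate 2 (1 higher), 4 without control replicate 1 (2 higher) and 6 without control replicate 2 (3 higher). Without control replicate 1 or 2 of 18 hpf, which enter the filter, the scaling and the estimate of spread but not the contrast, it called 3 (0 higher) and 6 (2 higher).

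**Figure D4:**
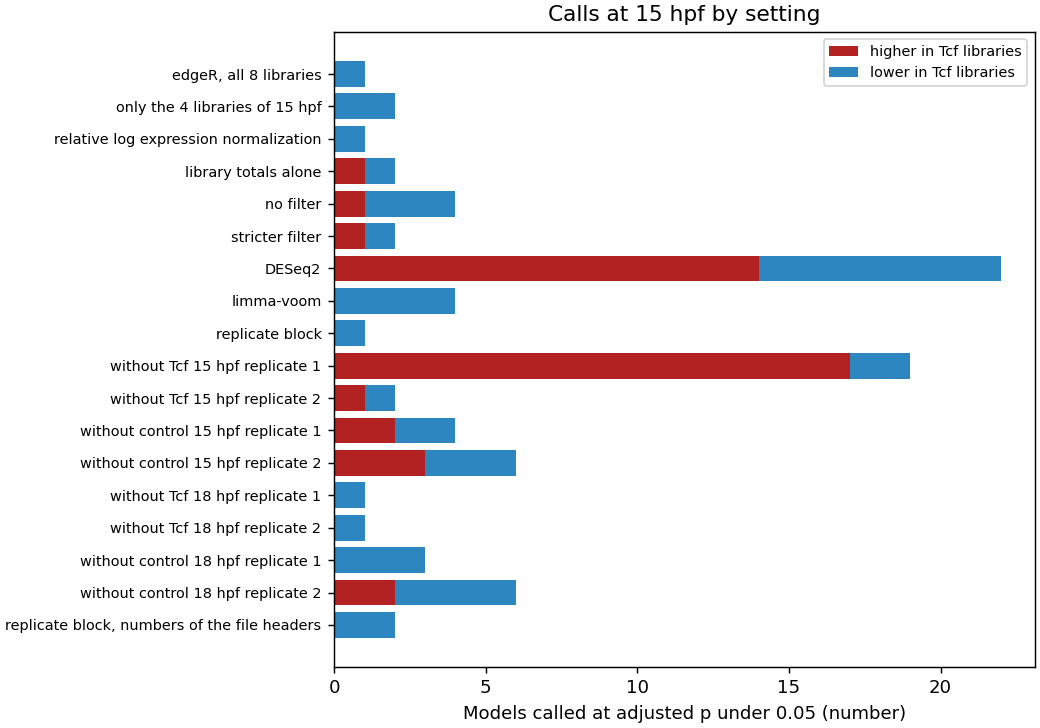
Number of models called at an adjusted p under 0.05 in the comparison of 15 hpf, for edgeR with all 8 libraries and for 17 alternatives, with higher and lower calls stacked. DESeq2, with 22 calls, and the fit without Tcf replicate 1, with 19, stand out, and most of their calls are higher in Tcf libraries.

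The effects of 15 hpf were then read at 18 hpf, where the contrast uses no library of 15 hpf, though the filter, the scaling and the estimate of spread are common to all 8 libraries. The 12 lower models and the 12 higher models with the smallest p were taken from those whose groups did not overlap at 15 hpf. Of the 12 lower models, 8 were lower at 18 hpf too, and for 6 both Tcf libraries of 18 hpf lay below both control libraries. Of the 12 higher models, 2 were higher at 18 hpf too, and for 5 both Tcf libraries of 18 hpf lay below both control libraries. Of all tested models, 49.7% had the same sign at both times. For 15.6% of them both Tcf libraries of 18 hpf lay below both control libraries. The 12 higher models had a median log2 fold change of 1.60 at 15 hpf, beside -0.31 at 18 hpf, and the 12 lower ones of -1.58 at 15 hpf, beside -0.26 at 18 hpf. The medians at 15 hpf come in part from the choice of the models by their values at that time. A smaller size at 18 hpf would follow from this choice alone. The count of 2 depended on single libraries. With the models chosen again it was 8 without Tcf replicate 1 of 15 hpf, when none of the 12 models was the same, and 1 without either control library of 15 hpf. It was 4 without Tcf replicate 2 and 6 without control replicate 1 of 18 hpf. For the lower models, likewise chosen again, the count was between 6 and 11 when any 1 library was left out. Without a library of 15 hpf the lists held 3 to 5 of the 12 original lower models.

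In the wider list the shares with the same sign at 18 hpf lay closer to that of all tested models. Of the 317 models higher at an unadjusted p under 0.05, 42.9% had the same sign at 18 hpf, and of the 288 lower models 49.0% had, beside 49.7% of all tested models. An unadjusted p under 0.05 at both times was seen for 52 models in edgeR. They made up 8.6% of the list of 15 hpf and 11.3% of that of 18 hpf, which held 3.83% of tested models. The estimate of spread of a model is common to both tests, which favours a small p at both times. The 3.83% is therefore no like baseline for the 8.6%. Of the 52 models, 9 were higher at both times, 8 were lower at both, and 35 had opposite signs. In the test of the difference between the times itself, edgeR called 0 models and limma-voom 0, with 561 (4.69%) at an unadjusted p under 0.05 in edgeR, while DESeq2 called 21. A difference between 15 and 18 hpf was therefore not shown by edgeR for any single model.

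**Figure D5:**
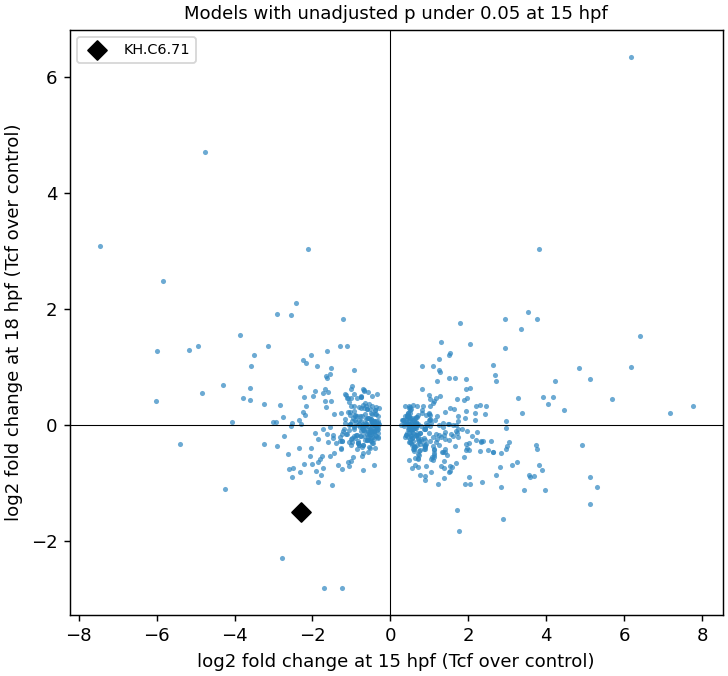
log2 fold change of Tcf over control at 18 hpf against that at 15 hpf for the 605 models with an unadjusted p under 0.05 at 15 hpf. Points lie on both sides of 0 at 18 hpf for higher and lower models alike, and the diamond marks KH.C6.71, at -2.29 and -1.50.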

How the data were processed

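Reads were processed with TopHat2 2.0.12 and counted with featureCounts, per the submitters' processing notes; genome build, strand setting and handling of multiply mapping reads: not given in the sources used here. The deposited values are raw read counts per KH2013 model, 1 table per library. Per the labels, 200 to 800 cells were sorted into lysis buffer, and SMART-Seq v4 cDNA was made from 250 to 2000 pg of RNA with no molecular identifiers described, so reads are not independent molecules. The labels do not say whether the 2 libraries of a group come from separate embryos, so p-values measure the spread between samples, which may be technical. The file headers number the control libraries of 15 hpf in the reverse order of the titles, which were used.

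Counts were analysed with edgeR 4.0.16 (R 4.3.3): filterByExpr with a minimum count of 10, TMM scaling, a model of 4 group means over 8 libraries (4 residual degrees of freedom) and robust quasi-likelihood tests, with Benjamini-Hochberg adjustment over 11970 models (threshold 0.05). SE is the log2 fold change over the square root of F; intervals use the moderated degrees of freedom. DESeq2 1.42.0 and limma 3.58.1 were alternatives. CPM values use the TMM factors. An exact permutation test of 2 against 2 libraries cannot fall below p = 0.333. Scripts were tested on simulated data. Named models had the smallest p among those whose groups did not overlap; the comparison, lists and rules were chosen with earlier results of these data known. Within the 15 hpf libraries, the chi-square statistic per degree of freedom between pairs was 5.44 or more, so none was treated as a duplicate.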

Additional observations from a re-analysis of the deposited data

How the results depend on the processing

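KH.C6.71 kept its direction and its call under all 17 alternatives run, with adjusted p from 2.21e-30 to 0.00215, and the other 3 named models kept their direction under all 17. The number of calls at 15 hpf, 1 with edgeR, became 2 with the 4 libraries of 15 hpf alone, 2 with library totals in place of TMM factors, 4 without a filter on low counts, 2 with a minimum count of 30, 22 with DESeq2 and 4 with limma-voom. It ran from 1 to 19 when 1 library was left out, in fits that give a lone library of 15 hpf the spread of the other groups. The number at an unadjusted p under 0.05 ran from 414 to 1362. The median log2 fold change of all models was 0.00878 with TMM, -0.00096 with relative log expression and 0.00394 with library totals. For the difference between times the number of calls was 0 with edgeR, 1 without a filter, 21 with DESeq2 and 0 to 7 when 1 library was left out. The count of 12 higher models with the same sign at 18 hpf ran from 1 to 8, and that of 12 lower models from 6 to 11, when 1 library was left out; these 2 counts and their alternatives were chosen after seeing the data. The cause of these shifts was not tested.

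The replicate numbers were not known to pair libraries. Deviations of same-numbered libraries from their group means had a correlation across models of 0.04 at 15 hpf and -0.17 at 18 hpf. With the numbers of the titles as a replicate block edgeR called 1 model, and with those of the file headers 2, both alternatives giving 0 calls for the difference between times. A block with the numbers crossed at 18 hpf also gave 0 there. The header and crossed blocks were added after seeing the data. At 15 hpf a single count was worth 0.135 to 0.169 CPM, and the models of the lowest level rested on the fewest counts. What limits their precision was not tested.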

Other observations

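One of the 100 most abundant models had a fitted log2 fold change of 2.39 at 15 hpf (SE 1.36, adjusted p = 0.959, edgeR), and the rise lay in Tcf replicate 2. It is the single model of 1706 CPM already counted among the 25 models of that library. It had 1233 and 12383 counts in the Tcf libraries and 1122 and 1254 in the control libraries of 15 hpf, so that Tcf replicate 1 was level with the control libraries. At 18 hpf it had 832.6 and 2021 CPM in Tcf libraries and 4990 and 1337 CPM in control libraries. The model was chosen after its values were seen, and what sets its level was not tested.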
